A study of Mus musculus with 16 samples.

Results

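The T cell receptor beta segments are the genes from which a T cell assembles the beta chain of its antigen receptor. Genes were taken by symbol, as those beginning with Trbv, Trbd, Trbj or Trbc and a digit, which gave 53 of the 49585 genes in the count table. They comprise 35 variable (V), 2 diversity (D), 14 joining (J) and 2 constant (C) segments, and 14 of the 53 are annotated as pseudogenes. All lie on chromosome 6 between 40891229 and 41558452 (GRCm38), on the plus strand except Trbv31. RNA was sequenced from pools of CD4-enriched T cells sorted from BALB/c-background mice that carry a Foxp3 IRES-GFP reporter, in 4 groups of 4 libraries. Pregnant uterine Treg (regulatory T cells) were sorted as CD4+ Foxp3+ CD25- cells from uteri on days 6, 7 and 8 of pregnancy, from 3 to 8 mice per pool. Sample titles of that group give last days of 8, 9, 10 and 11. Uterine Treg carried the same surface labels and came from non-pregnant uteri, and lymph node Treg were labelled CD4+ Foxp3+ CD25+ and came from para-aortic nodes of non-pregnant mice. CD4conv were conventional Foxp3- cells of the non-pregnant uterus. Each non-pregnant pool held 20 mice. No label gives the age of the mice. Uterine and lymph node Treg differ in CD25 label as well as in tissue, so tissue and CD25 fraction cannot be told apart between them. Pregnant uterine Treg and CD4conv were sequenced in batch 1 and uterine and lymph node Treg in batch 2, so batch and group cannot be told apart in comparisons between those pairs.

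During T cell development a D segment is joined to a J segment and then a V segment is joined to that pair, and the product is spliced to a C segment. The V segment carries the receptor loops that touch the MHC molecule, while the V-D-J junction forms the loop that reads the peptide. The locus has a row of V segments followed by a pair of clusters, each with its own D, J and C segments, and Trbv31 lies inverted behind the second cluster. A polyclonal T cell population uses many V segments in uneven shares, and expansion of single clones moves the shares of the segments they carry. Counts per segment give no clone or junction sequence.

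The D segments, the 4 J segments with the highest mean share and the 3 J segments that lack the motif of the others are shown because J counts are described by these names. Capitals mark the stretch encoding phenylalanine, glycine, any residue and glycine, a motif of J segments, which was found in 11 of 14 J segments. Of the 3 without it, Trbj1-6 and Trbj1-7 are annotated as J genes and Trbj2-6 as a pseudogene. Lack of this exact motif does not show that a segment is not functional. The motif was searched on the plus strand in the GENCODE M21 transcripts (GRCm38), from which all sequences here were read 5′ to 3′.
Trbd1: gggacagggggc
Trbd2: gggactgggggggc
Trbj1-2: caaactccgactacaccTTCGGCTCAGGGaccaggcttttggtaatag
Trbj1-4: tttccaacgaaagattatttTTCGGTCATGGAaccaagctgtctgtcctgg
Trbj1-5: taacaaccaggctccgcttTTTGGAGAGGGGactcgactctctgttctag
Trbj2-7: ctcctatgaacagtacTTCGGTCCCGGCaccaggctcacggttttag
Trbj1-6: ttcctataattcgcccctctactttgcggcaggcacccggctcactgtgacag
Trbj1-7: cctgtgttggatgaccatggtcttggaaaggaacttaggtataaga
Trbj2-6: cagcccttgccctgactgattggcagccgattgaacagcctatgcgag
They lie on the plus strand of GRCm38. In the first cluster are Trbd1 at chr6:41533201-41533212, Trbj1-2 at chr6:41534001-41534048, Trbj1-4 at chr6:41534811-41534861, Trbj1-5 at chr6:41535084-41535133, Trbj1-6 at chr6:41535554-41535606 and Trbj1-7 at chr6:41535642-41535687. In the second are Trbd2 at chr6:41542163-41542176, Trbj2-6 at chr6:41543598-41543645 and Trbj2-7 at chr6:41543810-41543856.

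The last 45 bases of the V segments whose values are described individually are shown because the V end contributes the start of the third loop of the beta chain. Capitals mark TGTGCCAGC, which encodes Cys-Ala-Ser in frame. This exact string was searched in the printed strand only and found in 17 of 35 V ends (48.571%), in 13 of 22 V genes and in 4 of 13 V pseudogenes. Other spellings of the same residues, as in Trbv16 and Trbv29, were not searched and are not marked.
Trbv19: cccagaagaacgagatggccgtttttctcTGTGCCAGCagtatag
Trbv13-1: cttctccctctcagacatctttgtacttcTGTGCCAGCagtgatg
Trbv13-2: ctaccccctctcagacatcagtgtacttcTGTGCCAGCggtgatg
Trbv13-3: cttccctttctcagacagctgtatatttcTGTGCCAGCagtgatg
Trbv1: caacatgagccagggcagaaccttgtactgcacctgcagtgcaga
Trbv31: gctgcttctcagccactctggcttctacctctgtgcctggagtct
Trbv20: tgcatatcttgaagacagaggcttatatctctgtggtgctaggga
Trbv12-2: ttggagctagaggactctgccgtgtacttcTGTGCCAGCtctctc
Trbv12-1: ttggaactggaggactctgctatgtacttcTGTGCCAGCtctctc
Trbv15: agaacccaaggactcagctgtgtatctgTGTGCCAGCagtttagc
Trbv16: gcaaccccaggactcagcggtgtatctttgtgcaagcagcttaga
Trbv26: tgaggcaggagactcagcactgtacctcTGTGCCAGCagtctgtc
Trbv3: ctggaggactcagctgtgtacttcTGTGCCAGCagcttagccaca
Trbv18: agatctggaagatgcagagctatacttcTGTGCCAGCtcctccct
Trbv5: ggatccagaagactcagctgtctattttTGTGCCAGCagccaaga
Trbv29: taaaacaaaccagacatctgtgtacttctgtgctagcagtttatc
The genes of the leading V segments are Trbv1 at chr6:40891229-40891885, Trbv12-2 at chr6:41118851-41119364, Trbv13-1 at chr6:41116007-41116468, Trbv13-2 at chr6:41121396-41121832, Trbv13-3 at chr6:41130147-41130585, Trbv19 at chr6:41178375-41179048 and Trbv20 at chr6:41188273-41188977 on the plus strand of GRCm38, and Trbv31 at chr6:41557691-41558452 on the minus strand. The other genes shown are Trbv3 at chr6:41048290-41048828, Trbv12-1 at chr6:41113550-41114067, Trbv15 at chr6:41141188-41141658, Trbv16 at chr6:41151740-41152230, Trbv18 at chr6:41175315-41175608, Trbv26 at chr6:41227505-41227993, Trbv5 at chr6:41062332-41062803 and Trbv29 at chr6:41271394-41271881, all on the plus strand. The 3 Trbv13 segments and the 2 printed Trbv12 genes were close copies of each other. Trbv13-2 and Trbv13-3 were 90.59% identical over their alignment with a longest identical run of 50 bases, and Trbv12-1 and Trbv12-2 were 88.31% identical with a longest run of 44 bases. None of 595 V pairs shared an identical run as long as the 150-base reads. Trbc1 and Trbc2 were 95.59% identical with an identical run of 259 bases, longer than a read, so the split of counts between them is uncertain.

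Of the counts in a library (1718558 to 15190212), 2073 to 31003 fell on beta segments. Foxp3 was at 192 to 814 counts per 1e6 counts of the library (CPM) in the 12 Treg libraries and at 0.503 to 3.26 CPM in CD4conv. The summed Treg markers (Foxp3, Il2ra, Ctla4, Ikzf2) were at 947 to 3698 CPM in Treg libraries and 150 to 340 CPM in CD4conv, with 4 of 4 genes lower in each CD4conv library than in each Treg library. CD4conv libraries carried markers of other cells. The 8 macrophage and dendritic cell markers summed to 95.3 to 682 CPM in Treg libraries and 2176 to 17283 CPM in CD4conv, with Cd68, Cd74, H2-Aa and Siglech above the Treg range in each CD4conv library. The 2 CD8 markers summed to 6.02 to 38.6 CPM in Treg libraries and 139 to 350 CPM in CD4conv, both above the Treg range in each CD4conv library. The 4 NK markers summed to 4.60 to 29.2 CPM in Treg libraries and 296 to 1301 CPM in CD4conv, which rests on 1 gene: Tyrobp, also a myeloid gene, was at 0 to 15.7 CPM in Treg libraries and 274 to 1267 CPM in CD4conv, and Ncr1, Klrb1c and Prf1 overlapped. The 6 B cell markers summed to 153 to 627 CPM in Treg libraries and 456 to 2420 CPM in CD4conv, and the 4 gamma delta T cell genes found to 0.28 to 20.8 and 11.6 to 36.1 CPM. The reads in olfactory and vomeronasal receptor genes, which T cells do not use, put the evenly spread background at 8.68% to 53.5% of library counts, above 30% in 5 libraries, namely pregnant uterine Treg 2 and 4, uterine Treg 3 and 5, and lymph node Treg 3. The expected background in V counts was 1.47% to 27.4%, highest in pregnant uterine Treg 4. It rests on those receptor genes, and the trypsinogen and predicted genes within the beta locus gave other densities. They held 6.6 counts per kb of exon in pregnant uterine Treg 4, against 15.4 in the receptor genes. In CD4conv 2 they held 35.9, against 9.33. The estimate for V counts is therefore uncertain.

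Beta RNA was abundant in each group, and the groups overlapped in the 4 comparisons. The 53 segments summed to 2392, 1489, 1859 and 580 CPM in pregnant uterine Treg and to 2583, 2770, 1696 and 1039 CPM in uterine Treg. They summed to 2980, 1989, 1882 and 1941 CPM in lymph node Treg and to 1516, 1312, 551 and 1592 CPM in CD4conv. Group means were 1580 ± 763, 2022 ± 805, 2198 ± 523 and 1243 ± 476 CPM in that order of groups (SD, n = 4 each), and the ranges overlapped in each pair of groups except lymph node Treg and CD4conv. In such bulk samples fewer T cells and less RNA per cell cannot be told apart. Set against the 4 CD3 genes, which encode the signalling chains that carry the receptor to the surface, beta counts stood at 0.991 ± 0.092 per CD3 count in pregnant uterine Treg, 1.13 ± 0.11 in uterine Treg, with 1.22 ± 0.06 in lymph node Treg and 1.20 ± 0.16 in CD4conv (SD, n = 4). On that ratio the 4 pregnant uterine Treg libraries (0.861 to 1.078) overlapped uterine Treg but lay below each lymph node Treg and CD4conv library.

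**Figure D1:**
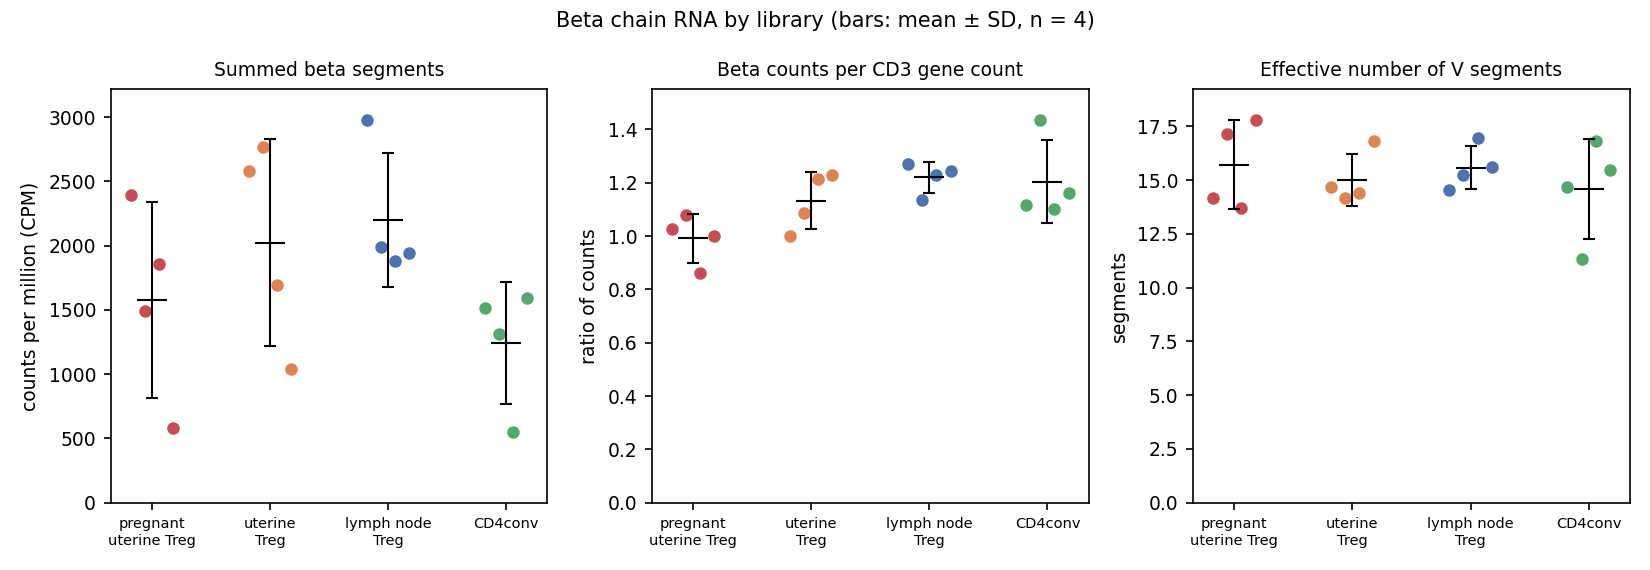
Summed CPM of the beta segments (left), beta counts per count of Cd3d, Cd3e, Cd3g and Cd247 (middle) and effective number of V segments (right), with a point per library and bars for the mean ± SD of 4 libraries. Beta CPM varied from 551 to 2980, while the ratio to CD3 stayed between 0.861 and 1.44.

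The C segments took most of the beta counts. They held 63.2% to 78.9% of a library's beta counts, the V segments 16.7% to 34.1%, the J segments 2.51% to 7.92% and the D segments 0.124% to 0.443%. These class shares are of counts and follow segment length as well as use. Trbc2 encodes the constant domain of the second cluster and Trbc1 that of the first. Trbc1 was at 662, 469, 434 and 141 CPM in pregnant uterine Treg and at 673, 805, 442 and 264 CPM in uterine Treg. It was at 822, 503, 491 and 439 CPM in lymph node Treg and at 402, 439, 142 and 363 CPM in CD4conv. Pregnant uterine Treg 4 and CD4conv 3 were the lowest libraries and the groups overlapped in each comparison. Per kilobase of exon, Trbc2 was above Trbc1 in 16 of 16 libraries, with group means of 952 against 569 CPM per kb in pregnant uterine Treg, 1242 against 729 in uterine Treg, with 1418 against 752 in lymph node Treg and 792 against 449 in CD4conv.

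No beta segment was called in any comparison. Differences were tested with edgeR's quasi-likelihood test over 30096 genes with p-values adjusted by Benjamini-Hochberg and called under 0.05, and 42 of the 53 segments passed the filter on low counts. Called were 0 of 42 segments in uterine against lymph node Treg, beside 0.0% of all genes higher and 0.0% lower, and 0 of 42 in uterine Treg against CD4conv, beside 0.0332% higher and 0.485% lower. Called were likewise 0 of 42 in pregnant against non-pregnant uterine Treg, beside 0.0% and 0.0%, and 0 of 42 in pregnant uterine Treg against CD4conv, beside 0.0332% higher and 0.399% lower. Comparisons that share a group share its libraries. At an unadjusted p under 0.05 this edgeR fit also gave 0 segments in each, where all genes gave 3.01%, 5.33%, 2.73% and 4.79% in the same order of comparisons. An edgeR fit restricted to genes above background gave 0, 10, 0 and 2 of 37 segments at that level. Without the 5 libraries of background above 30%, edgeR gave 0, 11, 0 and 5 of 44. DESeq2 gave 0, 5, 2 and 0 of 52 segments at an unadjusted p under 0.05 and 0 after adjustment in each. The share of all genes at that level was not taken in these alternative fits, so their counts are no result about the segments. After adjustment, uterine Treg against CD4conv had 147 genes higher and 141 lower of 4798 in the fit above background. Without the 5 libraries it had 108 higher and 319 lower of 33091. The common biological coefficient of variation was 0.812, and a miss at that spread does not show equal levels.

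The fitted differences leaned the same way against CD4conv. In uterine Treg against CD4conv, 38 of 42 segments had a positive log2 fold change, beside 47.8% of all genes, with a median of 0.64 over the segments and -0.05 over all genes. Without uterine Treg 2 that median was -0.0046, with 21 of 42 positive. In pregnant uterine Treg against CD4conv, 40 of 42 were positive, beside 53.7% of all genes, with medians of 0.46 and 0.07. Without pregnant uterine Treg 3 the median over the segments was 0.09, and without pregnant uterine Treg 4 it was 0.81. In uterine against lymph node Treg 11 of 42 were positive, beside 46.9% (medians -0.15 and -0.06), and in pregnant against non-pregnant uterine Treg 12 of 42, beside 56.5% (medians -0.20 and 0.11). Leaving out 1 library turned the sign of both medians over the segments, to 0.09 without uterine Treg 5 and to 0.40 without uterine Treg 2. Without the 5 libraries of high estimated background, 0 segments were called in each comparison, and the medians over the segments were 0.25 (uterine against lymph node Treg), 1.15 (uterine Treg against CD4conv), -0.05 (pregnant against non-pregnant uterine Treg) and 1.09 (pregnant uterine Treg against CD4conv), beside -0.38, -0.51, 0.20 and -0.33 over all genes. The segments share transcripts and are not independent. The lean was not confined to them. Of 9 tested partner genes of the beta chain, described below, 8 were positive in uterine Treg against CD4conv (median 0.32). In pregnant uterine Treg against CD4conv 7 of the 9 were positive (median 0.33). Trac, the CD3 genes and Trat1 were positive in both comparisons. The other positive genes were Rag1 and Rag2 in uterine Treg and Rag1 in pregnant uterine Treg. Rag1 was highest in the 5 libraries of high estimated background.

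The constant segments had log2 fold changes smaller than their standard errors (SE). Trbc1 and Trbc2 had 0.51 ± 0.69 and 0.47 ± 0.69 (SE) in uterine Treg against CD4conv, and 0.22 ± 0.68 and 0.23 ± 0.69 in pregnant uterine Treg against CD4conv. Among V segments Trbv12-1 had the highest fold of uterine Treg over CD4conv, 1.91 ± 1.00 (edgeR adjusted p = 0.999). Trbv12-1 was at 2.78, 6.69, 1.65 and 1.68 CPM in pregnant uterine Treg, 25.5, 7.66, 3.40 and 3.96 in uterine Treg, with 5.56, 9.05, 10.5 and 4.30 in lymph node Treg and 2.51, 0, 4.32 and 4.17 in CD4conv. Uterine Treg 1 stood alone, and without it the fold was 0.89. Only in the fit restricted to 4798 genes above background did a segment pass: Trbv13-1, higher in uterine Treg than in CD4conv at log2 1.24 (edgeR adjusted p = 0.0288). Over all genes it had 1.04 ± 0.61 (adjusted p = 0.999). The restricted fit called 1 of 37 segments in that comparison, beside 147 higher and 141 lower of its 4798 genes.

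On the CPM scale, 2 of 42 segments did not overlap between uterine and lymph node Treg, both lower in uterine Treg, where 2.18% of all genes were lower in this way. Trbv3 was at 4.96, 4.27, 4.24 and 3.96 CPM in uterine Treg and 13.2, 7.62, 8.73 and 9.86 CPM in lymph node Treg (log2 -1.40 ± 0.83, adjusted p = 1.00). Trbv5 was at 1.77, 2.49, 0 and 1.98 CPM in uterine Treg and 3.81, 4.29, 5.82 and 4.30 CPM in lymph node Treg (log2 -1.49 ± 1.06). Both groups are of batch 2, but they differ in CD25 label as well as in tissue. In the other 3 comparisons 0 of 42 segments lacked overlap in either direction, where 1.68% and 2.65% (uterine Treg against CD4conv), 0.532% and 0.498% (pregnant against non-pregnant uterine Treg) and 1.31% and 3.05% (pregnant uterine Treg against CD4conv) of all genes were higher and lower without overlap.

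Of 10 partner genes of the beta chain, 9 were tested and 1 was called. Trac, the constant segment of the alpha chain, was at 355 ± 195, 418 ± 189, 373 ± 123.1 and 293 ± 117 CPM in pregnant uterine Treg, uterine Treg, lymph node Treg and CD4conv (SD, n = 4 each). The CD3 chains Cd3d, Cd3e, Cd3g and Cd247 and the adaptor Trat1 were not called in any comparison, nor were the recombinase genes Rag1 and Rag2, while Ptcra, the pre-T alpha chain of thymocytes, did not pass the filter. Dntt, the enzyme that adds bases at the junctions, was at 0.154, 8.99, 3.49 and 13.99 CPM in pregnant uterine Treg, 1.42, 1.25, 12.3 and 19.3 CPM in uterine Treg and 85.6, 70.1, 65.6 and 35.8 CPM in CD4conv. It was lower in uterine Treg than in CD4conv by log2 -3.60 ± 0.85 (edgeR adjusted p = 0.0497) and in pregnant uterine Treg by log2 -3.92 ± 0.85 (edgeR adjusted p = 0.0279). The groups did not overlap, but the test passed the threshold in only 7 of 15 alternatives in uterine Treg and 5 of 14 in pregnant uterine Treg. The edgeR or DESeq2 adjusted p ran from 0.0116 to 0.190 in uterine Treg and from 0.00291 to 0.134 in pregnant uterine Treg, and leaving out CD4conv 1, 2 or 3, uterine Treg 1, 2 or 3, or pregnant uterine Treg 1, 2 or 3 each ended the call (adjusted p of 0.0594 to 0.190). Siglech, a plasmacytoid dendritic cell marker, was at 0 to 88.1 CPM in Treg libraries and 764 to 1622 CPM in CD4conv, and its part in the Dntt difference was not tested.

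V use was uneven in each group, with Trbv19 first by mean share in pregnant uterine Treg and CD4conv and Trbv13-1 first in uterine and lymph node Treg. Per kilobase of exon, the highest V segments over the mean of the 4 groups were Trbv13-1 at 138 CPM per kb, Trbv13-2 at 128, Trbv1 at 117.5 and Trbv19 at 106, followed by Trbv31 at 92.6, Trbv13-3 at 91.5 and Trbv20 at 84.8. Neighbours in this order did not separate: Trbv13-1 was above Trbv13-2 in 11 of 16 libraries, Trbv1 above Trbv19 in 9 and Trbv31 above Trbv13-3 in 9. Trbv20 stood above the next, Trbv12-2 at 55.7 CPM per kb, in 15 of 16. The highest V segment per kilobase was Trbv13-1 in 7 libraries, Trbv19 and Trbv1 in 3 each, Trbv13-2 in 2 and the pseudogene Trbv18 in 1. Low V genes were Trbv26 at 2.27, Trbv23 at 1.91 and Trbv21 at 4.05 CPM per kb. Spearman's rho between the group mean shares of the 35 V segments was 0.889 to 0.972 over the 6 pairs of groups, a description across segments that share libraries.

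**Figure D2:**
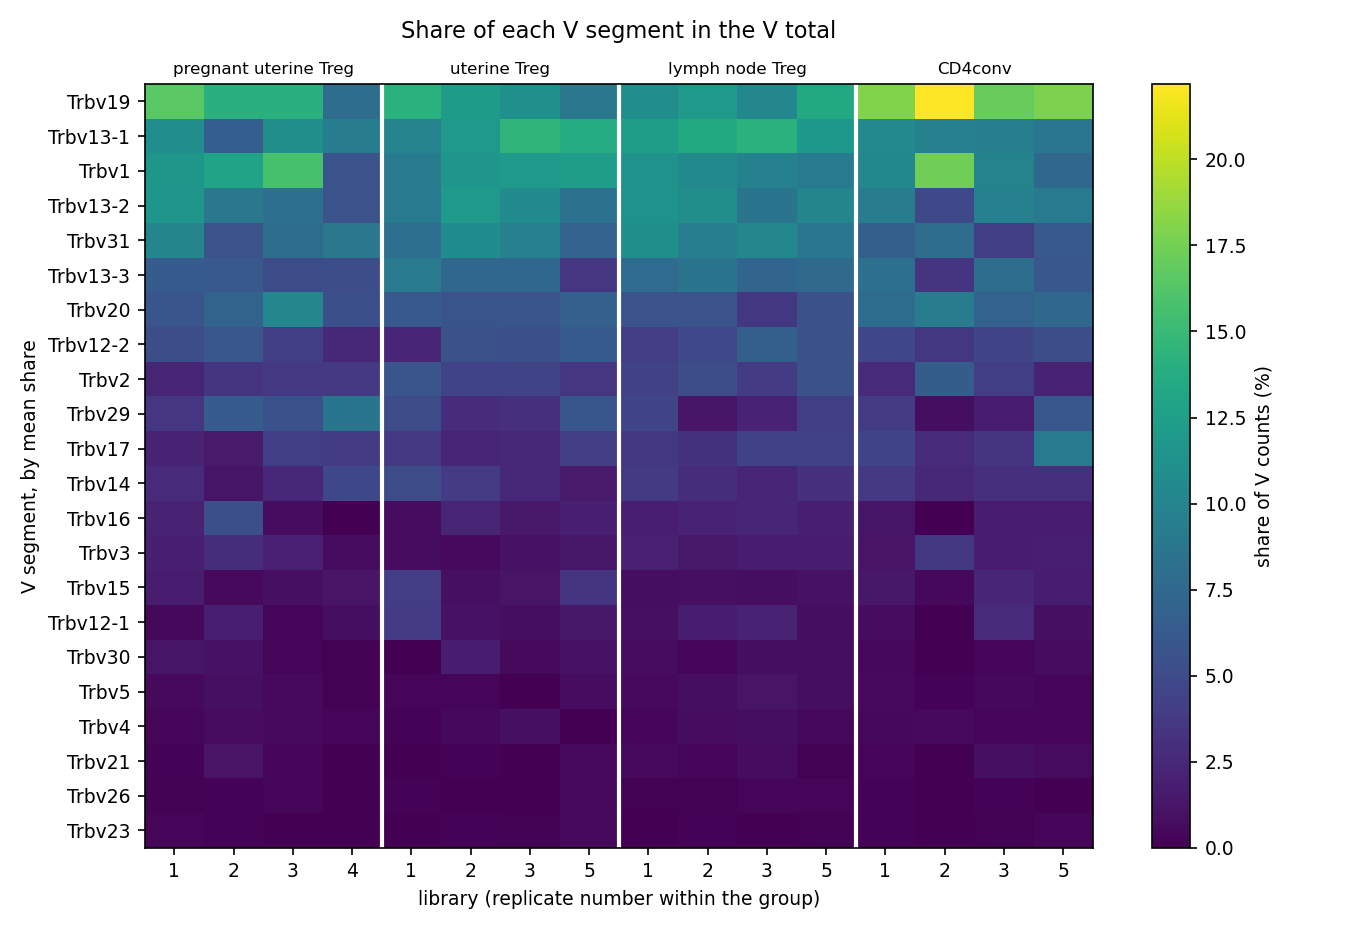
Share of each of 22 V genes in the V counts of a library, in percent by color, with segments in rows by mean share and libraries in columns by group. Trbv19 was between 17.1% and 22.2% in the CD4conv columns and between 7.93% and 16.5% in the Treg columns.

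The share of a segment in the V counts of its library compares the same segment between libraries and is not scaled by the amount of beta RNA. Background enters it more where beta RNA is low: it was estimated at 27.4% of V counts in pregnant uterine Treg 4 (580 CPM of beta) and 12.5% in uterine Treg 5 (1039 CPM). The 8 segments with the highest mean shares together held 71.7% of V counts on the mean of the groups. Shares of the 18 V segments at 1% or more were compared by exact two-sided permutation tests in 4 comparisons, a family of 72. With 70 arrangements the smallest exact p is 0.0286 and the adjustment over the family is passed only where many tests reach it. Groups did not overlap in 5 of 72 tests (6.94%), all at exact permutation p = 0.0286 and at an adjusted p of 0.411. That p restates the lack of overlap, which shuffled labels give with a probability of 0.0286 in a single test. The tests are not independent, since comparisons share libraries and the shares of a library add up to a fixed total. Each of the 5 also lacked overlap with the estimated background subtracted and with shares taken over V genes alone. Leaving out libraries cannot bring back an overlap and is given only for the size of a difference.

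Trbv19, known as V beta 6 in the older naming, took a smaller share in Treg than in CD4conv. Its share was 16.5%, 14.1%, 14.1% and 7.93% in pregnant uterine Treg, 14.1%, 12.2%, 11.1% and 8.90% in uterine Treg, with 10.9%, 11.9%, 10.2% and 13.5% in lymph node Treg and 17.98%, 22.2%, 17.1% and 17.8% in CD4conv. Each of the 12 Treg libraries lay below each of the 4 CD4conv libraries, and the nearest were pregnant uterine Treg 1 at 16.5% (95% exact binomial interval 15.7% to 17.4%, 1303 of 7885 V counts) and CD4conv 3 at 17.1% (15.2% to 19.0%, 274 of 1607), whose intervals overlap. The difference in mean share was -5.61 percentage points in pregnant uterine Treg against CD4conv, within batch 1, and -7.17 points in uterine Treg against CD4conv, across batches (exact permutation p = 0.0286 and adjusted p = 0.411 each). Across the alternatives these differences ran from -6.73 to -3.47 and from -8.02 to -5.58 points, with -3.47 reached without the 5 libraries of high estimated background. On the CPM scale Trbv19 had log2 0.16 ± 0.65 and 0.12 ± 0.65 (SE) in the same comparisons, below the medians over all beta segments of 0.46 and 0.64. CD4conv libraries also differed in the 2 CD8 markers given above, and the part of other T cells in the Trbv19 share was not tested.

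**Figure D3:**
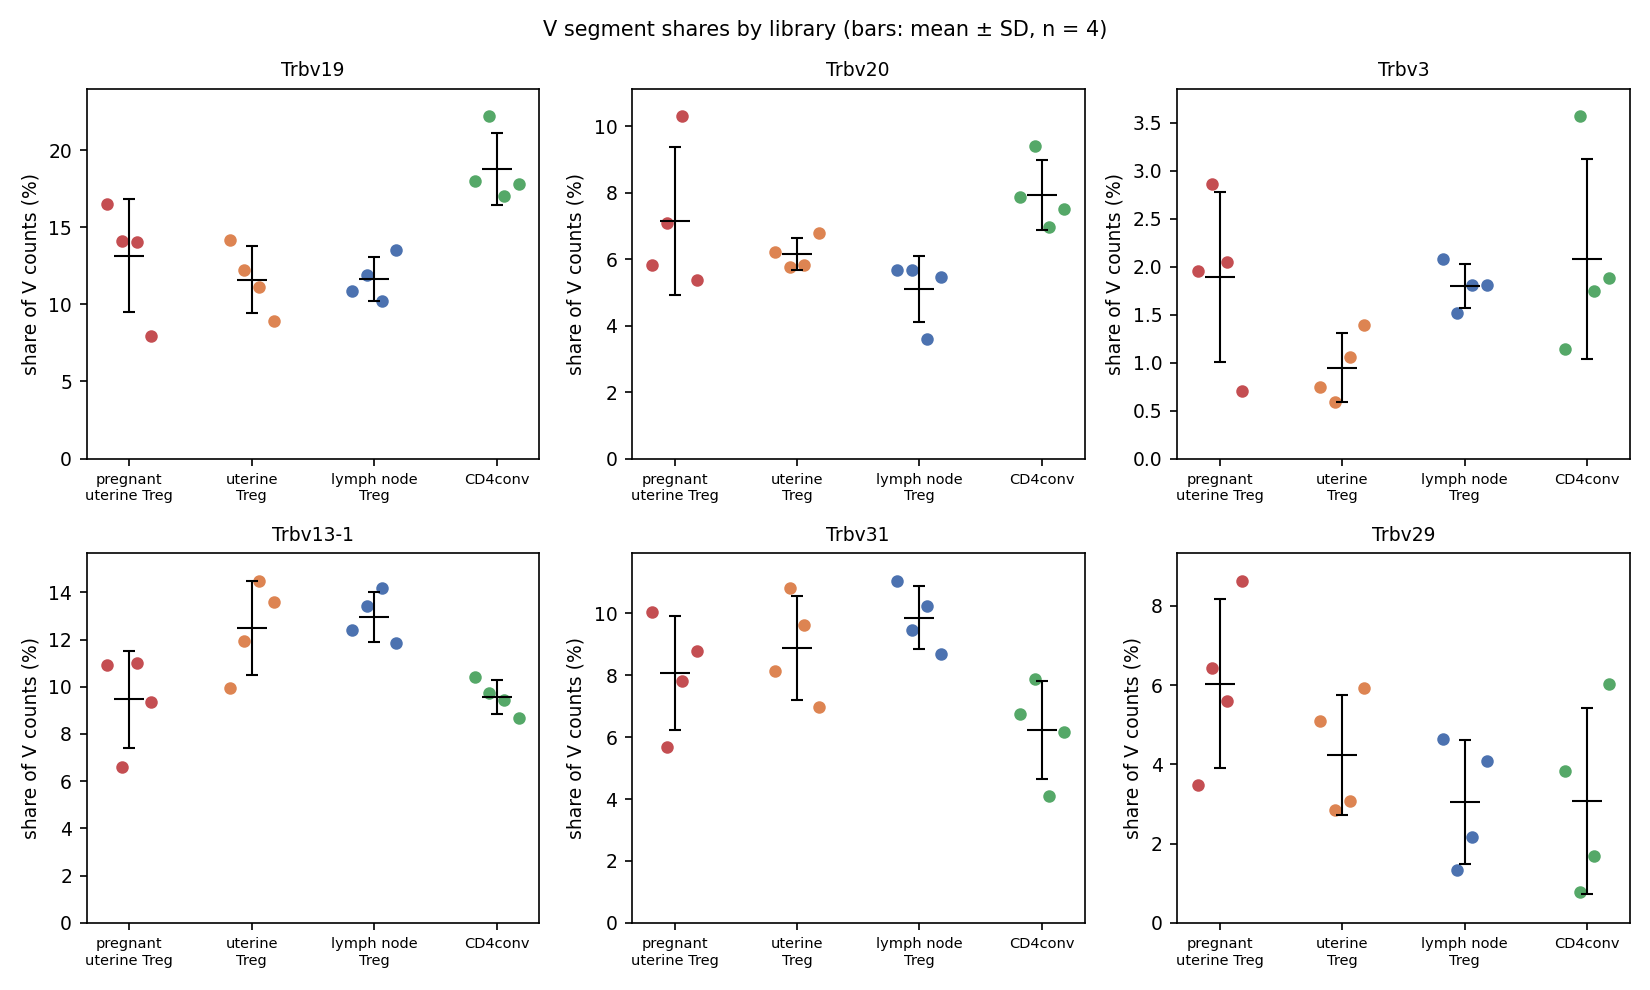
Share of 6 V segments in the V counts of each library (percent), with bars for the mean ± SD of 4 libraries per group. Trbv19 was higher in each CD4conv library than in each Treg library, Trbv3 lower in each uterine than in each lymph node Treg library, and Trbv13-1, Trbv31 and Trbv29 overlapped in the comparisons of uterine Treg with the other groups.

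Trbv20 was at 5.82%, 7.08%, 10.3% and 5.38% of V counts in pregnant uterine Treg, 6.21%, 5.77%, 5.82% and 6.81% in uterine Treg, with 5.68%, 5.68%, 3.61% and 5.46% in lymph node Treg and 7.87%, 9.40%, 6.97% and 7.51% in CD4conv. Uterine Treg lay between the other 2 non-pregnant groups without overlap, 1.05 points above lymph node Treg and 1.79 points below CD4conv in mean share (exact permutation p = 0.0286 and adjusted p = 0.411 each). The gap to lymph node Treg was narrow, with the lowest uterine value at 5.77% and the highest lymph node value at 5.68%. The difference from lymph node Treg was 0.546 points without lymph node Treg 3 and 0.386 points without the 5 libraries of high estimated background. Trbv3 was at 1.95%, 2.87%, 2.05% and 0.708% in pregnant uterine Treg, 0.750%, 0.587%, 1.06% and 1.40% in uterine Treg, with 2.08%, 1.51%, 1.81% and 1.81% in lymph node Treg and 1.14%, 3.57%, 1.74% and 1.88% in CD4conv. It was 0.853 points lower in uterine than in lymph node Treg, without overlap (exact permutation p = 0.0286, adjusted p = 0.411), and overlapped in the other comparisons.

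Other leading V segments overlapped between the groups compared. Trbv13-1 averaged 9.47 ± 2.05% of V counts in pregnant uterine Treg, 12.5 ± 2.00% in uterine Treg, with 13.0 ± 1.05% in lymph node Treg and 9.57 ± 0.726% in CD4conv (SD, n = 4 each). Its highest CD4conv value, 10.4%, lay above 1 uterine Treg library at 9.96% (exact permutation p = 0.0571). Trbv31, the inverted segment that is joined by inversion, averaged 8.08 ± 1.85%, 8.89 ± 1.68%, 9.86 ± 1.01% and 6.22 ± 1.58% in the same order of groups, and uterine Treg and CD4conv overlapped (exact permutation p = 0.0571). Trbv1, at the far upstream end of the locus, averaged 11.54 ± 4.26%, 11.3 ± 1.51%, 10.2 ± 0.955% and 11.3 ± 4.24%, with its widest values in pregnant uterine Treg (5.67% to 15.8%) and CD4conv (7.49% to 17.4%). Trbv29 averaged 6.04 ± 2.14%, 4.23 ± 1.52%, 3.05 ± 1.56% and 3.08 ± 2.35%, and pregnant and non-pregnant uterine Treg overlapped (exact permutation p = 0.171). The Trbv13 family, the V beta 8 segments of the older naming, together held 20.3% to 29.0% in pregnant uterine Treg, 25.5% to 32.7% in uterine Treg, with 29.7% to 32.9% in lymph node Treg and 18.1% to 27.9% in CD4conv.

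Trbv12-1, Trbv12-2, Trbv15, Trbv16 and Trbv26 encode beta chains that are read by superantigens of endogenous mouse mammary tumor viruses, which delete such T cells in mice that carry them together with a presenting MHC class II molecule. Together they held 9.70%, 14.04%, 6.45% and 4.53% of V counts in pregnant uterine Treg, 11.2%, 9.81%, 8.89% and 13.4% in uterine Treg, with 7.81%, 9.84%, 12.5% and 9.63% in lymph node Treg and 8.33%, 4.09%, 11.6% and 9.68% in CD4conv. The groups overlapped. Trbv12-2 had the highest mean share of the 5 in each group, at 4.50 ± 1.51%, 4.88 ± 1.73%, 5.29 ± 1.13% and 4.56 ± 0.703% in the same order. Trbv26 was nearly absent from each group, at 0 to 0.378%, 0 to 0.524%, 0.0946% to 0.370% and 0.0372% to 0.249%. Trbv15 reached 4.07% in uterine Treg 1 and 3.32% in uterine Treg 5, and was at 0.446% to 2.36% in the other 14 libraries. Trbv16 had 0 of 2691 V counts in CD4conv 2, which allows a share of up to 0.111%, and 0 of 706 in pregnant uterine Treg 4, which allows up to 0.425%, beside 5.38% in pregnant uterine Treg 2.

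Evenness was expressed as the effective number of V segments, the exponential of the Shannon entropy of the V shares, which is the number of equally used segments that would give the same entropy. It was 14.2, 17.2, 13.7 and 17.8 in pregnant uterine Treg, 14.7, 14.2, 14.4 and 16.8 in uterine Treg, with 14.5, 15.3, 16.9 and 15.6 in lymph node Treg and 14.7, 11.3, 16.8 and 15.4 in CD4conv. The groups overlapped, with means of 15.7 ± 2.07, 15.0 ± 1.20, 15.6 ± 1.01 and 14.6 ± 2.32 (SD, n = 4 each). CD4conv 2 was the least even library, with the highest single share (Trbv19, 22.2%), 49.3% of V counts in its 3 highest segments and 21 V segments with a count. Thinned to 573 V counts in each library, the means were 15.5, 14.9, 15.4 and 14.3 in the same order. With the estimated background removed they were 14.4, 14.1, 14.7 and 13.5. The most even libraries fell with it removed: pregnant uterine Treg 4 and 2 to 15.2 and 14.9, lymph node Treg 3 to 15.6. CD4conv 3 fell to 14.8 and uterine Treg 5 to 14.7. The SD of pregnant uterine Treg fell from 2.07 to 0.852. Expected background in V counts was 8.075% to 27.4% in those most even libraries. It was 8.55% in uterine Treg 3, which went from 14.4 to 13.4. The part of background in a library's evenness was not tested. Over all 53 beta segments the evenness (entropy over its maximum) was 0.523 ± 0.029, 0.513 ± 0.021, 0.512 ± 0.048 and 0.502 ± 0.061, and among the J segments it was 0.866 ± 0.146, 0.943 ± 0.0121, 0.939 ± 0.011 and 0.953 ± 0.0086. J evenness was lowest in pregnant uterine Treg 4, at 0.649 over 52 J counts.

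Libraries of a group, which are separate pools of mice, differed in V use. The chi-square per degree of freedom of V gene counts over the 4 libraries was 16.1 in pregnant uterine Treg, 6.76 in uterine Treg, with 2.33 in lymph node Treg and 15.2 in CD4conv, where counting error of independent reads gives a value near 1. Reads without molecular identifiers are not independent molecules, and the expected background in V counts also differs between libraries; their part in these values was not tested. It grows with the number of V counts, which were 706 to 7885, 573 to 4089, 831 to 3996 and 1607 to 3460. The part of the V counts that would have to move to make a pair of libraries equal does not scale with depth in that way. Its median within groups was 24.5% in pregnant uterine Treg, 18.5% in uterine Treg, with 9.77% in lymph node Treg and 19.0% in CD4conv, over 6 pairs each. Single libraries carried some of these values. The 3 pairs with pregnant uterine Treg 4 were at 31.1% to 36.0% and the other 3 at 15.2%, 17.4% and 17.9%, which puts the median without it at 17.4%. The 3 pairs with CD4conv 2 were at 23.1% to 28.9% and the other 3 at 10.6%, 10.8% and 15.0%, which puts the median without it at 10.8%. Between groups the medians were 19.6% (pregnant and non-pregnant uterine Treg), 18.6% (pregnant uterine Treg and CD4conv), 13.6% (uterine and lymph node Treg) and 21.0% (uterine Treg and CD4conv), over 16 pairs each. The median was 19.99% between pregnant uterine Treg and lymph node Treg and 19.1% between lymph node Treg and CD4conv. The lymph node Treg value within its group was the lowest of the 4.

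V pseudogenes took few counts. Of 13 V pseudogenes, Trbv8 had no count in any library and 1 had a count in each. Their summed share of V counts was 0.951% to 7.03% in 15 libraries and 25.2% in pregnant uterine Treg 4. There Trbv18, a pseudogene, held 85 of 706 V counts (12.04%, 95% exact binomial interval 9.73% to 14.7%), against 0 to 3.17% in the other libraries. That library also had the highest estimated background in V counts, 27.4%, or 15.4 counts per kb of exon. The trypsinogen and predicted genes within the locus held 6.6 counts per kb there. Trbv18 has 294 bases of exon and held 85 counts there. The part of background in its share was not tested.

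J counts were led by Trbj1-5, which had the highest or joint highest share in 15 of 16 libraries. Per kilobase Trbj1-5 was at 256 CPM per kb over the mean of the groups, Trbj2-7 at 171, Trbj1-2 at 162 and Trbj1-4 at 159.7. The first was above the second in 13 of 16 libraries, and the others did not separate, with Trbj1-2 above Trbj1-4 in 7 of 16. Trbj1-5 averaged 19.1 ± 7.83% of J counts in pregnant uterine Treg, 11.6 ± 5.21% in uterine Treg, with 17.7 ± 2.03% in lymph node Treg and 15.2 ± 2.08% in CD4conv (SD, n = 4 each). The wide spreads rest on pregnant uterine Treg 4 (30.8%, of 52 J counts) and uterine Treg 5 (3.77%, of 106). The low segments were Trbj2-5 at 38.3 and Trbj2-4 at 47.9 CPM per kb. The 3 J segments without the motif were counted too, with Trbj1-6 at 143, Trbj1-7 at 131 and Trbj2-6 at 89.6 CPM per kb. Reads of unspliced or germline RNA count toward a segment as reads of joined chains do.

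**Figure D4:**
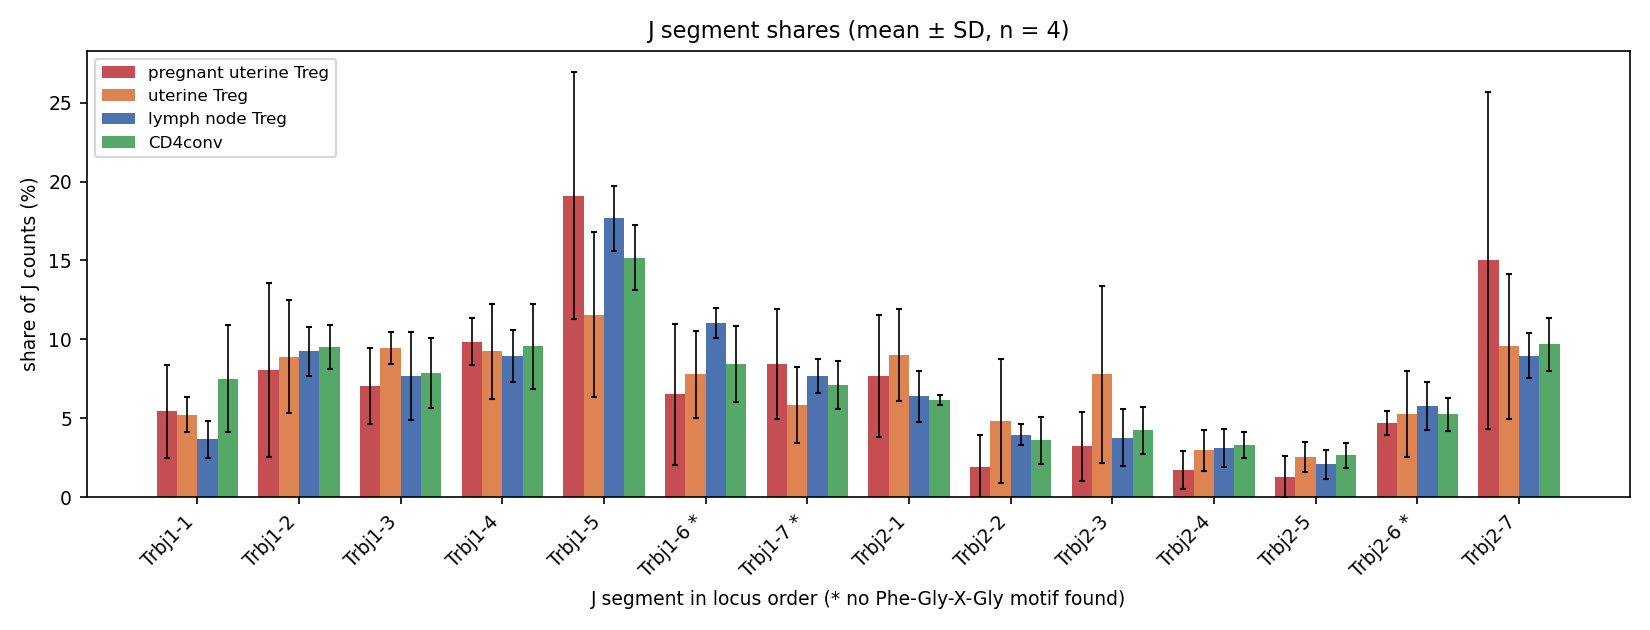
Share of each J segment in the J counts (percent), in locus order, as bars for the group mean with SD over 4 libraries. Asterisks mark segments without the motif, and Trbj1-5 had the highest mean in 4 of 4 groups, from 11.6% in uterine Treg to 19.1% in pregnant uterine Treg.

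J segments of the first cluster took 69.7%, 73.9%, 62.3% and 51.9% of J counts in pregnant uterine Treg, 65.0%, 61.0%, 71.1% and 34.9% in uterine Treg, with 60.5%, 68.5%, 67.1% and 67.4% in lymph node Treg and 66.9%, 58.4%, 68.0% and 67.2% in CD4conv. It was above 50% in 15 of 16 libraries, and the groups overlapped. The C segments ran the other way: Trbc1 took 39.2 ± 3.28%, 38.4 ± 2.75%, 36.5 ± 0.724% and 38.3 ± 3.39% of C counts in the same order, from 34.7% to 43.4%. Both D segments, at 12 and 14 bases the shortest members, had few counts. Trbd1 was at 0 to 2.50 CPM in pregnant uterine Treg, 1.48 to 2.49 in uterine Treg, with 1.75 to 4.76 in lymph node Treg and 0.604 to 1.95 in CD4conv, and Trbd2 at 1.40 to 2.47, 1.70 to 2.85, 0.582 to 5.56 and 0.402 to 1.86 CPM.

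**Figure D5:**
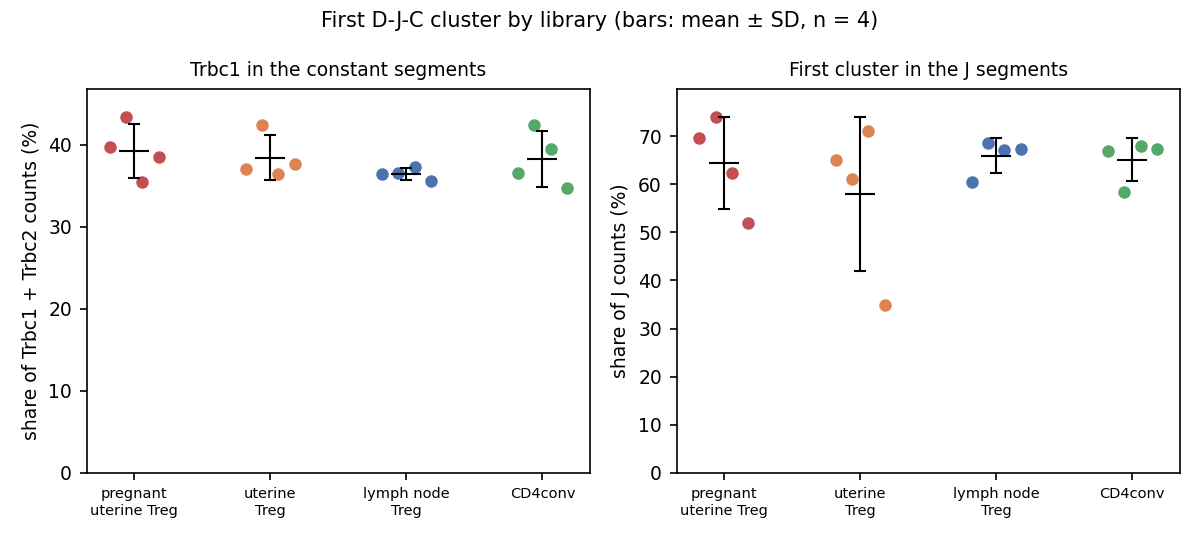
Trbc1 in percent of the Trbc1 and Trbc2 counts (left) and J segments of the first cluster in percent of J counts (right), with a point per library and bars for the mean ± SD of 4 libraries. Trbc1 stayed between 34.7% and 43.4%, and the first J cluster was at 34.9% in uterine Treg 5, which had 106 J counts.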

How the data were processed

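RNA of 16 libraries was measured by full-length cDNA synthesis (SMART-Seq v4), Nextera XT libraries and paired reads of 150 bases, per the labels' protocols. The deposited values are raw read counts per gene made by the authors, without normalization; the 16 single-library files were identical to the series table. Per the submitters' processing notes, Trimmomatic, HISAT2, SAMtools, featureCounts and DESeq2 were used with GRCm38; versions, settings and the handling of multiply matching reads are not stated there. The kits do not mark strand. BALB/c reads were counted on a reference of another strain.

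Symbols came from GENCODE M21, which named 49326 of 49585 genes and all 53 members. Groups came from the labels alone. Counts were tested with edgeR 4.0.16 in R 4.3.3 (quasi-likelihood, TMM, filterByExpr, robust, 4 groups in 1 fit, 12 residual degrees of freedom), with Benjamini-Hochberg adjustment over 30096 genes and a threshold of 0.05. The SE is the absolute log2 fold change over the square root of F. DESeq2 1.42.0 was an alternative. The fit was checked on simulated counts. CPM are counts per 1e6 counts of the library, and exonic length is that of the merged exons. Shares were compared by exact permutation tests (Python 3.11.15, numpy 2.4.6, scipy 1.17.1). Background was the mean count per exonic base of 1429 olfactory and vomeronasal receptor genes; genes above it had over 5 times that density.

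Individually described were Trbc1, Trbc2, Trbd1, Trbd2, Trbv31, the 8 V and 4 J segments with the highest mean share, 5 superantigen-read V segments and any segment past a threshold; Trbv3, Trbv5, Trbv18, Trbv29, Siglech and the lowest V and J segments were added after their values were seen. Members and lists were chosen with earlier results of these data known. Libraries are pools of mice. Intervals and limits from counts of 0 (3 counts) cover counting error only, since reads without molecular identifiers are not independent molecules.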

Additional observations from a re-analysis of the deposited data

Results flagged for a closer look

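In groups of 4 libraries, 104 groups over 26 measures were searched for a library far from the other 3, and 8 were found, where chance gives about 1 group in 20. CD4conv 2 had 4.91% of V counts in Trbv13-2, against 9.19% to 9.77% in the other CD4conv libraries, and 58.4% of J counts in the first cluster, against 66.9% to 68.0%. Lymph node Treg 3 had 3.61% of V counts in Trbv20, against 5.46% to 5.68%. Lymph node Treg 1 had 2980 CPM of summed beta segments, against 1882 to 1989. Pregnant uterine Treg 4 had 30.8% of J counts in Trbj1-5, against 13.9% to 16.1%, and 25.2% of V counts in pseudogenes, against 1.65% to 4.86%. Uterine Treg 5 had 3.77% of J counts in Trbj1-5, against 13.9% to 14.6%, and 4.72% in Trbj1-4, against 10.5% to 11.2%. Pregnant uterine Treg 4 and uterine Treg 5 held the fewest beta counts (2073 and 2100) and an estimated background of 53.5% and 34.9% of library counts; the part of depth and background in these values was not tested.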

How the results depend on the processing

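The count of beta segments past the threshold was 0 in 115 of 116 alternatives; it was 1 (Trbv13-1, higher in uterine Treg than in CD4conv, log2 1.24) in the fit on genes above background. Fits without 1 library gave 0 in each. Scaling by RLE in place of TMM moved the median log2 fold change of all genes from -0.05 to 0.14 in uterine Treg against CD4conv and from 0.07 to 0.20 in pregnant uterine Treg against CD4conv, beside 0.74 and 0.43 over the segments. Not called in any fit, Trbc1 in uterine Treg against CD4conv was at -0.0149 without uterine Treg 2 (range without 1 library -0.0149 to 0.94). In pregnant uterine Treg against CD4conv it was at -0.0477 without CD4conv 3 and -0.255 without pregnant uterine Treg 1 (range -0.255 to 0.67), and Trbc2 at -0.0426 without CD4conv 3, -0.194 without pregnant uterine Treg 1 and -0.0245 without pregnant uterine Treg 3 (range -0.194 to 0.57). With V genes only, the effective number of V segments was 13.4 in pregnant uterine Treg, 13.7 in uterine Treg and 14.1 in lymph node Treg; the pseudogenes left out lower it by construction. With C segments only, summed beta in lymph node Treg was 1545 CPM. Of 392 alternatives in all, 6 turned the sign, 5 moved a value beyond the spread between libraries or changed a count of 0, 1 brought Trbv13-1 past the threshold and 17 ended a Dntt call, among them RLE scaling (adjusted p = 0.130 in uterine Treg and 0.0737 in pregnant uterine Treg) and the fit on genes above background (0.190 and 0.134). The alternatives for Dntt and those without the libraries of high background were added after the data were seen. Same-numbered uterine Treg correlated at -0.341 to 0.4125 with lymph node Treg and at -0.0267 to 0.2229 with CD4conv. Same-numbered lymph node Treg and CD4conv correlated at -0.3025 to 0.1814. Differently numbered uterine and lymph node Treg correlated at -0.422 to 0.4285, so these values do not settle whether replicate numbers pair the libraries. With the replicate number as a block over the 12 non-pregnant libraries 0 beta segments were called. Over all genes that block gave 19 higher and 203 lower in uterine Treg against CD4conv, beside 10 and 146 in the fit of all 16 libraries without it. Against lymph node Treg it gave 0 and 0. Calls over all genes moved more with the tool: DESeq2 gave 43 higher and 292 lower in uterine Treg against CD4conv, and 43 and 268, beside 10 and 120, in pregnant uterine Treg against CD4conv, while the fit on genes above background gave 147 and 141, and 189 and 202. Depth limits the J and D values most: 52 to 1879 J and 4 to 71 D counts per library.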

Other observations

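Constant beta counts per Trac count, a ratio of the 2 receptor chains within a library, were 3.31, 3.61, 2.38 and 3.57 in pregnant uterine Treg, 3.18, 3.41, 3.23 and 4.18 in uterine Treg, 4.2, 4.56, 5.07 and 3.14 in lymph node Treg and 2.83, 4.06, 2.49 and 2.73 in CD4conv. In lymph node Treg 3 of 4 libraries lay above 4, as did 1 uterine Treg and 1 CD4conv library. The 10 trypsinogen and predicted genes that lie within the locus held 16 to 299 counts per library, or 1.92 to 35.9 counts per kb of exon, the highest in CD4conv 2, where Prss2 had 222. Rag1 was at 16.2, 45.8, 4.34 and 41.1 CPM in pregnant uterine Treg, 28.0, 1.25, 63.2 and 65.8 in uterine Treg, 1.11, 26.7, 33.7 and 11.9 in lymph node Treg and 23.2, 0.650, 20.7 and 25.1 in CD4conv, and the 5 libraries with an estimated background above 30% were the 5 highest.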
